A study of Rattus norvegicus with 6 samples.

Results

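The genes described here build the sugar donors, the lipid-linked oligosaccharide for N-glycosylation and the glycosylphosphatidylinositol (GPI) anchor, as measured on Affymetrix arrays in rat INS-1 insulinoma cells. They were chosen by symbol, as every gene in the probe annotation named Alg, Dpm or Pgap plus a digit or Pig plus a single letter, together with Dpagt1, Dolk, Gfpt1, Gfpt2, Gnpnat1, Pgm3, Uap1, Gmppa, Gmppb, Pmm1, Pmm2, Mpi and Gpaa1. This gave 43 of the 12603 genes measured by a probeset with exactly 1 gene entry, read by 61 of 17978 such probesets. The rule uses symbols and no measured value, although it was written with earlier results of these data known. No filter on low values was applied, and all 43 were tested. From a list of genes of these steps that held none of the Pgap genes, a further 11 were not analysed as genes. They were Alg6, Alg13, Gfpt1, Gpaa1, Pigb, Pigf, Pign, Pigw and Pigz, which were not matched to a probeset here, and Pigg and Uap1, which were read only by probesets with several gene entries. For Pigg the entries repeat the same symbol, so that its probeset is not ambiguous. That probeset differed by 0.05 and 0.21 (log2) between doxycycline-treated and untreated cells.

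N-glycosylation begins with dolichol phosphate in the ER membrane. UDP-GlcNAc and GDP-mannose supply the first sugars on the cytosolic face, the lipid is flipped, and dolichol-linked mannose and glucose complete the oligosaccharide in the lumen before it is moved to a nascent protein. GPI assembly draws on the same UDP-GlcNAc and dolichol phosphate mannose, and the transamidase joins the finished anchor to proteins that carry the signal. Genes of the lipid-linked oligosaccharide pathway are known to respond to the unfolded protein response (UPR), in which the endoribonuclease of IRE1 splices the mRNA of the transcription factor XBP1.

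The cells were 1 clone of INS-1, a rat insulinoma line used as a β-cell model, and carried insulin 2 C96Y-GFP, a misfolding (Akita) proinsulin fused to GFP whose expression doxycycline (Dox) induces. The 3 groups were left untreated, received Dox, or received Dox together with 4μ8c at 5 μM, which blocks the endoribonuclease of IRE1. Treatment lasted 48 h, with Dox at 4 μg/ml in the sample labels. The study's methods state a lower Dox concentration. The untreated cells carried the same transgene and selection drugs, and all Dox-treated cells could make the mutant proinsulin, so that effects of Dox itself and of the mutant protein cannot be told apart. Arrays for the inhibitor without Dox were not analysed here. Each of 2 independent experiments gave 1 array per group, 6 arrays in all. The label's replicate number was taken as the experiment, and groups were compared within it.

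The deposited log2 values were centred per probeset within an experiment, so that they hold differences but no levels, and neither detection nor the identity of the cells could be read from a level. For each of the 25476 probesets the median of the 3 replicate 1 arrays was 0. For replicate 2 this held for 0.836% of probesets, and the reference used to centre it is not known. In experiment 1, 57.2% of probesets had at least 2 arrays at exactly 0, against 0.416% in experiment 2. Of the 61 probesets of this pathway 25 were of that kind. An exact 0 difference in experiment 1 is therefore a tie left by the processing, and no absence of change was concluded from it. The ties were kept as 0 in gene means, medians, standard errors and p-values, which therefore depend on them. Counts of genes above or below in both experiments, and the shares over all genes, leave such ties out of the numerator. SDs of centred values depend on the centring and hold any effect of the treatment. The Dox array of experiment 2 had the largest, 0.176 (log2) over all probesets against 0.0502 to 0.117 on the other 5 arrays. On that array the gap between 5′ and 3′ probesets of the labelling spike-ins had moved by -0.46 (log2, median of 7 pairs) relative to untreated cells, against -0.26 to 0.03 for the other treated arrays. Its part in the results was not tested, and the main counts are also given without it. Of 11 islet hormone and β-cell marker genes measured, 3 fell with Dox (Gcg, Mafa and Iapp), where 2.01% of all genes did. Ins1 and Ins2 differed from untreated by -0.03 and -0.13 (log2, not past the test). In bulk RNA, fewer cells of a type and less RNA per cell cannot be told apart.

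To ask how expression of the mutant proinsulin affected this pathway, cells given Dox were compared with untreated cells. With Dox, 8 of the 43 genes rose, and the background over all genes tested was 4.42%. They were Piga, Gmppb, Alg12, Pigy, Gnpnat1, Alg1, Alg5 and Alg14. None of the 43 fell, where 2.01% of all genes did. At an unadjusted p under 0.05 by limma, 12 were higher and 1 was lower, where 11.2% and 8.44% of all genes were. The median log2 difference was 0.08 over the 43 genes and 0.01 over all genes. Without the Dox array of experiment 2 these medians were 0.0393 and -0.0025. Ties in experiment 1 enter the medians and the test as 0, more often over all genes. In experiment 2 alone the medians were 0.09 and 0.03. The part of the ties in the number of genes called was not tested. In both experiments 17 of the 43 (39.5%) lay above the untreated array, against 26.6% of all genes. Ties in experiment 1, which count as not above, held 6 of the 43 but 3178 of the 12603 genes, which lowers the share over all genes more. Piga, Gmppb and Alg12 were the 3 genes at least 1.5 fold higher, a size reached by 0.968% of all genes. Without the Dox array of experiment 2, 7 of the 8 still passed the test and Alg5 did not, with 3.25% of all genes higher. Without the untreated array of experiment 1, 4 passed (Piga, Gmppb, Alg12 and Pigy), with 1.40% of all genes. In a fit without the experiment as a block 5 did (Piga, Gmppb, Gnpnat1, Alg1 and Alg14), with 2.40% of all genes.

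**Figure D1:**
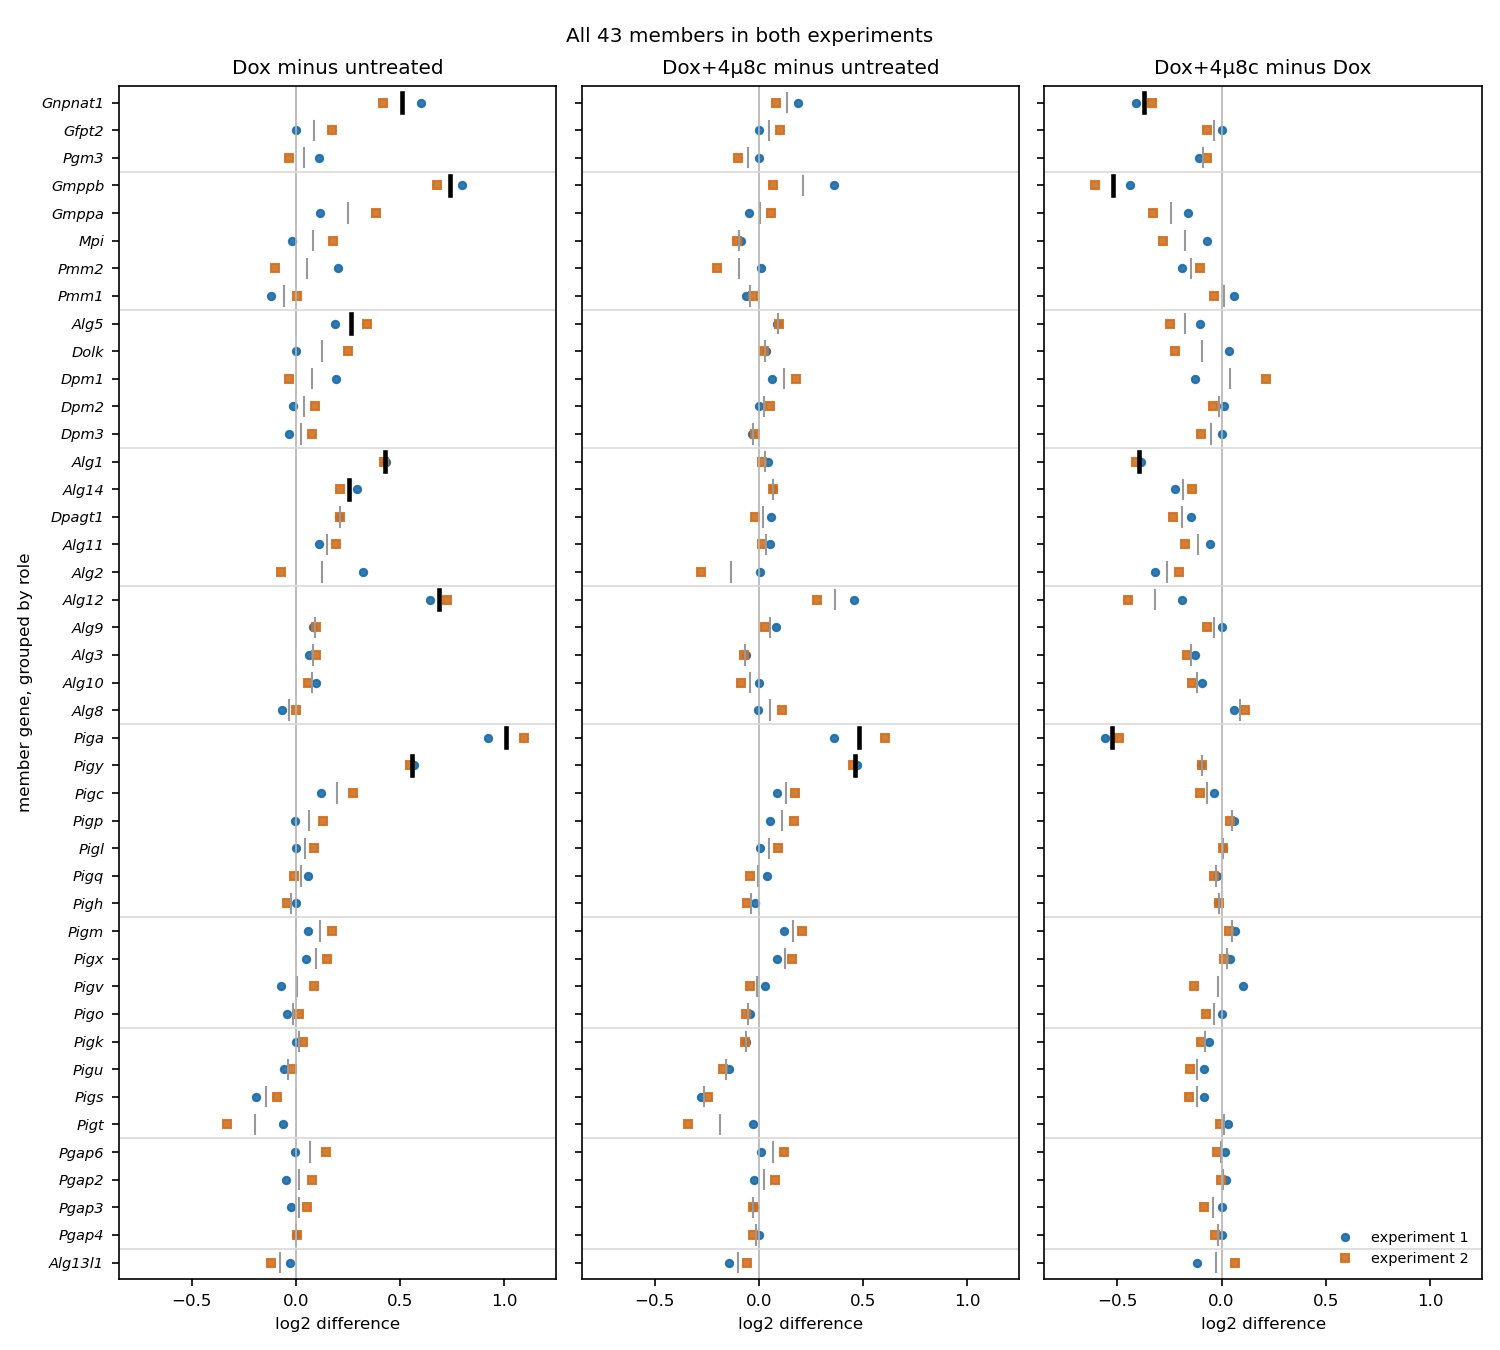
Log2 difference (x axis) of each of the 43 genes (y axis, ordered by role from the sugar nucleotides at the top to GPI remodelling and Alg13l1 at the bottom) for Dox minus untreated, Dox+4μ8c minus untreated and Dox+4μ8c minus Dox. Circles are experiment 1, squares experiment 2, and the vertical ticks are their means, heavy and black where limma's adjusted p was under 0.05: 8 ticks in the left panel, 2 in the middle and 4 in the right.

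The genes that rose were spread over the steps from sugar activation to the lipid-linked oligosaccharide. Of 23 genes that make UDP-GlcNAc, GDP-mannose, the dolichol-linked donors and the oligosaccharide itself, 6 rose, and their median log2 difference was 0.09. Of the 19 GPI genes 2 rose, Piga and Pigy, with a median of 0.02. By their symbols both of these lie in the first step, and none of the other 17 GPI genes passed the test. The difference between the branches was not tested.

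In the supply of UDP-GlcNAc, Gnpnat1, which acetylates glucosamine 6-phosphate, was higher with Dox by 0.60 (log2) in experiment 1 and 0.42 in experiment 2. Both Dox arrays thus lay above their untreated array, and the mean of 0.51 ± 0.06 (SE, n = 2 experiments, limma adjusted p = 0.0065) is 1.42 fold. Gfpt2, an amidotransferase of the first hexosamine step, and Pgm3, the mutase that follows Gnpnat1, differed by 0.09 and 0.04 and did not pass the test. For Gfpt2 every array of experiment 1 was tied at exactly 0, and the difference in experiment 2 was 0.17. The enzyme of the last step, Uap1, has only a probeset that is also assigned to Uap1l2. Read for neither gene alone, that probeset was higher with Dox by 0.79 and 0.73.

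Gmppb, the catalytic subunit of GDP-mannose pyrophosphorylase, was higher by 0.80 and 0.68 with Dox. The mean was 0.74 ± 0.07 (log2, SE, adjusted p = 0.0045), or 1.67 fold, and its probesets gave means of 0.72 and 0.75. Gmppa, the regulatory subunit of the same enzyme, differed by 0.11 and 0.39, with an adjusted p of 0.108. The enzymes upstream of it, Mpi (0.08), Pmm1 (-0.06) and Pmm2 (0.05), did not pass the test, and each of them lay on opposite sides of untreated in the 2 experiments.

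Among genes that make dolichol phosphate and charge it with sugars, Alg5, which forms dolichyl phosphate glucose, rose by 0.27 ± 0.06 (log2, SE, adjusted p = 0.0483). Its differences were 0.19 and 0.34, and it was the gene just inside the threshold. Dolk, the dolichol kinase, differed by 0.00 and 0.25, and its probeset was among those with an exact tie in experiment 1. The dolichol phosphate mannose synthase genes Dpm1, Dpm2 and Dpm3 had means between 0.02 and 0.08.

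All 5 genes measured for the cytosolic steps had a mean above untreated, from 0.13 to 0.43, as did 54.8% of all genes. Alg1, which adds the first mannose, was higher by 0.43 in both experiments (SE 0.05, adjusted p = 0.0052). Alg14, which anchors the transferase of the second GlcNAc to the membrane, was higher by 0.29 and 0.21, a mean of 0.25 ± 0.05 (SE, adjusted p = 0.0359). Dpagt1, which starts the pathway and is the target of tunicamycin, was just outside the threshold at 0.21 (adjusted p = 0.0637). Its probesets differed, with means of 0.37 and 0.05, and the lower of them was tied at exactly 0 in experiment 1 and at 0.09 in experiment 2. For Alg2, a mannosyltransferase read by 4 probesets, all 4 were above untreated in experiment 1 but only 1 in experiment 2, and the gene means were 0.32 and -0.07. Alg11, which adds the next mannoses, differed by 0.11 and 0.19 (adjusted p = 0.172).

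In the lumen, Alg12, which adds the mannose that opens the last branch, was higher with Dox by 0.64 and 0.73. The mean was 0.69 ± 0.07 (log2, SE, adjusted p = 0.0045), or 1.61 fold. The other lumenal transferases, the mannosyltransferases Alg3 and Alg9 and the glucosyltransferases Alg8 and Alg10, lay between -0.03 and 0.09, and none passed the test. The 95% interval of Alg9, the largest of these, ran from -0.03 to 0.21.

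Piga, the catalytic subunit of the GlcNAc transferase that starts GPI synthesis, had the largest log2 difference of the 43 genes. It was higher with Dox by 0.92 and 1.10, a mean of 1.01 ± 0.07 (log2, SE, adjusted p = 0.0016), or 2.01 fold. A single probeset reads Piga, and its name carries the suffix by which Affymetrix marks possible cross-hybridisation. RefSeq also lists a pseudogene, Piga-ps1. Pigy is, by its symbol, a small subunit of the same transferase. It was higher by 0.57 and 0.55, a mean of 0.56 ± 0.05 (SE, adjusted p = 0.0025), and its probesets gave 0.49 and 0.62. RefSeq holds Pigy as another name of Pyurf too, a separate locus whose 3 probesets averaged 0.04 and 0.30 with Dox (mean 0.17, adjusted p = 0.269). The other transferase subunits, Pigc (0.20), Pigp (0.06), Pigq (0.03) and Pigh (-0.02), and the deacetylase Pigl (0.04) did not pass the test, and for Pigc the adjusted p was 0.101.

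**Figure D2:**
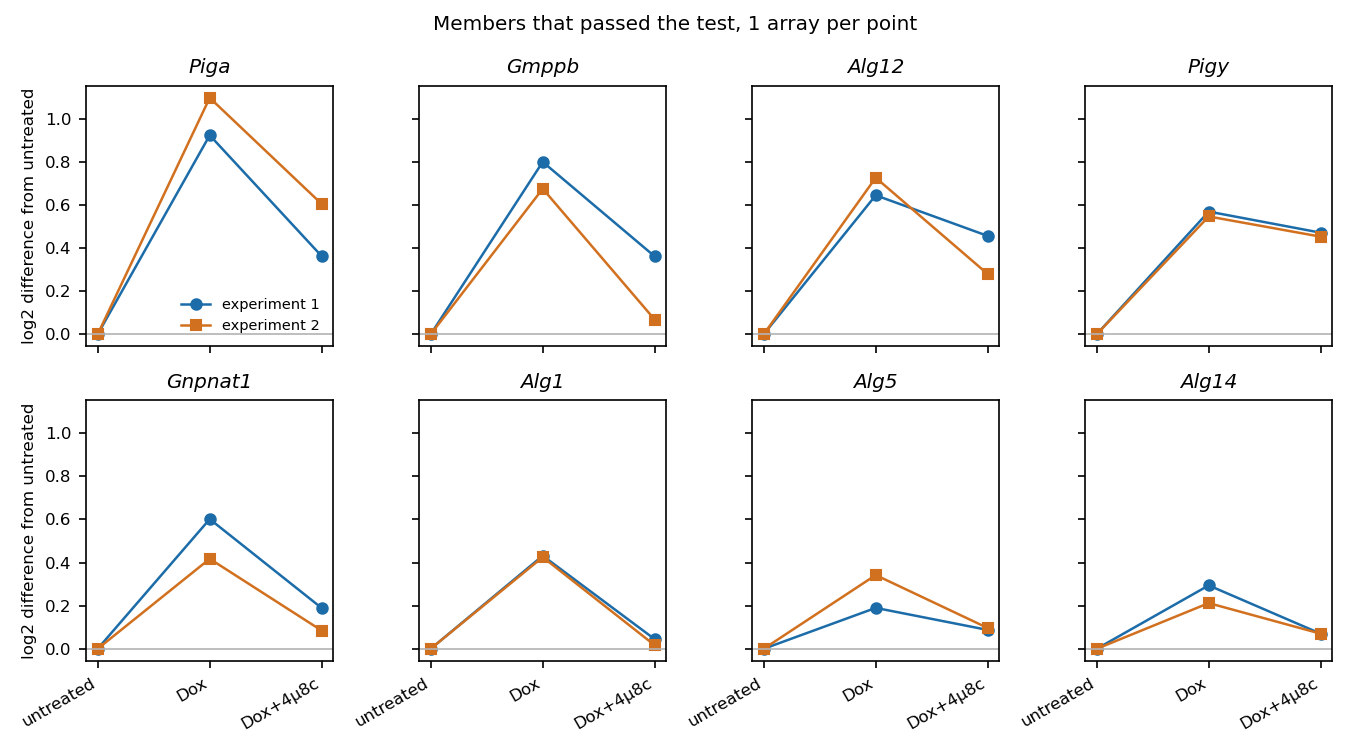
Log2 difference from the untreated array of the same experiment (y axis) for untreated, Dox and Dox+4μ8c arrays (x axis) of the 8 genes that rose with Dox, 1 array per point, with circles for experiment 1 and squares for experiment 2. In all 8 genes and both experiments the Dox+4μ8c array lay between the untreated and the Dox array. The genes were chosen for their rise with Dox on these same arrays, which favours such an order. The share among all genes that rose was not counted. For Pigy it lay near Dox, and for Alg1 near untreated.

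Farther along the GPI pathway the differences were small. Pigm, the first mannosyltransferase, and its partner Pigx differed by 0.12 and 0.10, and Pigv and Pigo, which add the second mannose and an ethanolamine phosphate, differed by 0.01 and -0.01. None passed the test. For Pigm, with the largest mean of these, the differences were 0.06 and 0.17 (SE 0.05, adjusted p = 0.279). The transamidase genes were the only role of the 9 with a negative median, -0.09. Pigs, Pigt and Pigu lay below untreated in both experiments, as did 24.8% of all genes, with means of -0.14, -0.20 and -0.04, and Pigk, the catalytic subunit, was at 0.02. None of the 4 passed the test. Pigt was at -0.06 and -0.33 (SE 0.08, adjusted p = 0.254), and its 2 probesets had means of -0.14 and -0.26. The remodelling genes Pgap2, Pgap3, Pgap4 and Pgap6, which trim or modify the attached anchor, lay between 0.00 and 0.07. The largest of these was Pgap6, at -0.01 and 0.14 (mean 0.07, SE 0.05, adjusted p = 0.522). Alg13l1, listed in the annotation beside the Alg genes, was at -0.03 and -0.12 (mean -0.07, SE 0.06, adjusted p = 0.510).

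**Figure D3:**
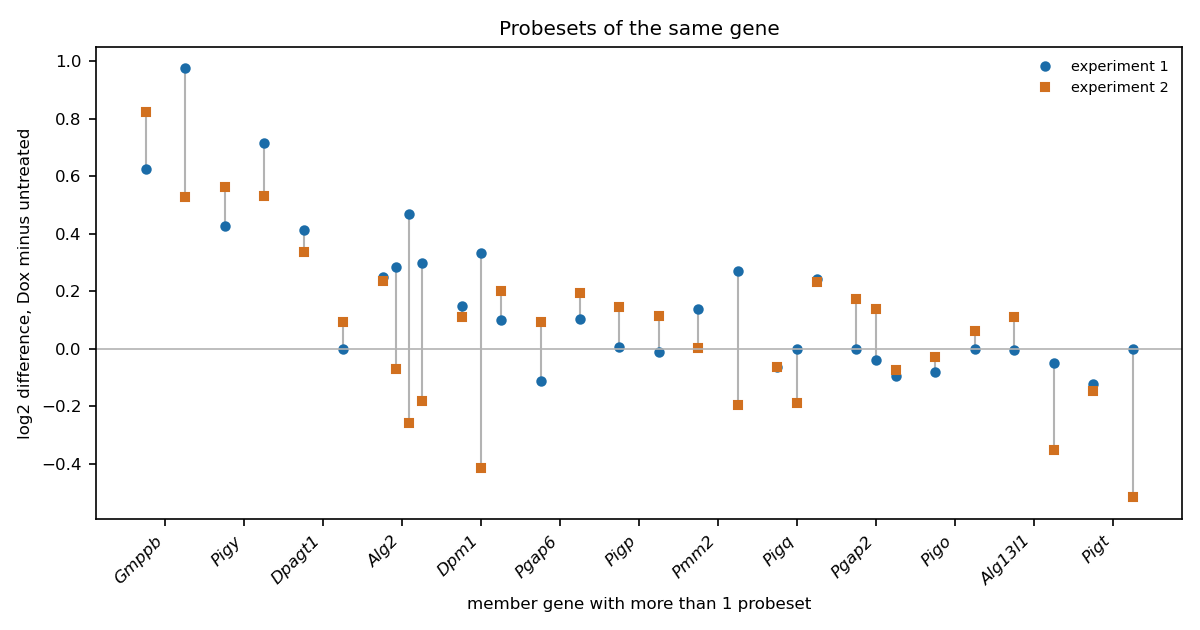
Log2 difference between Dox and untreated arrays (y axis) for every probeset of the 13 genes with more than 1 (x axis), circles for experiment 1 and squares for experiment 2, joined by a line for each probeset. All probesets of Gmppb and Pigy were above 0 in both experiments, and at least 1 probeset of Alg2, Dpm1 and Pmm2 lay above 0 in experiment 1 and below 0 in experiment 2.

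The promoters of the 4 genes with the largest rise are shown because these genes rose together and because the short sequence CCACG is part of known binding sites of UPR factors. The windows are from RefSeq (GRCr8), 250 bases before to 50 after the start, each 5′ to 3′ on the gene's strand. Capitals mark CCACG or its reverse complement CGTGG.
Piga (chrX:33687568-33687867, minus strand): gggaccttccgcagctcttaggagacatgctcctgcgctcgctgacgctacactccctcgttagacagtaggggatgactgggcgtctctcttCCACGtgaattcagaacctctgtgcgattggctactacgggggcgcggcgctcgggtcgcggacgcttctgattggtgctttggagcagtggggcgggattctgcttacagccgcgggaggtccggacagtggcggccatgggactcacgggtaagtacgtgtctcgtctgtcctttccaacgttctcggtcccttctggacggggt
Gmppb (chr8:117616155-117616454, plus strand): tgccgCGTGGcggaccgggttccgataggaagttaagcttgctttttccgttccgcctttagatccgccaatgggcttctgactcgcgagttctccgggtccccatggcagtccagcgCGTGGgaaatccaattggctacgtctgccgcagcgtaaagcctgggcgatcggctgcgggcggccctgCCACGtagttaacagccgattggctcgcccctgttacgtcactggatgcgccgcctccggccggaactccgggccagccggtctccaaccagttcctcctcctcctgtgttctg
Alg12 (chr7:121788934-121789233, minus strand): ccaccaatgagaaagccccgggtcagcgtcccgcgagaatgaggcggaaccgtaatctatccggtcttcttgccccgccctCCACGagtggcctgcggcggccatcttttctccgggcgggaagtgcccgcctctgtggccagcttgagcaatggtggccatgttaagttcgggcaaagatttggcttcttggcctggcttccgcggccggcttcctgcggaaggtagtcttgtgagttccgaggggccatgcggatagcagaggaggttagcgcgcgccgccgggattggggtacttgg
Pigy (chr8:28965384-28965683, plus strand): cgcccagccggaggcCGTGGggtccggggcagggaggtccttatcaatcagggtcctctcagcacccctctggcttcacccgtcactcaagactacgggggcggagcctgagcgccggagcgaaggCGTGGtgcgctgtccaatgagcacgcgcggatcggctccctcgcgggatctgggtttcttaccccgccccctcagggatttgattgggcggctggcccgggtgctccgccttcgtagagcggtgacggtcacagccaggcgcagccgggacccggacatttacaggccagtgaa

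A promoter window was found for 39 of the 43 genes. CCACG stood on either strand in 20 of the 39 (51.3%), against 4794 of the 10431 array genes with a window (46.0%), and in 7 of the 8 genes that rose. Piga and Alg12 hold it once, at -157 and -169 from the start, and Gmppb holds it at -245, -132 and -64. The ER stress response element (CCAAT, a gap of 9 bases, CCACG) was in none of the 39 windows and in 0.163% of those of all array genes. Its second form (ATTGG, a gap of 1 base, CCACG) was in none, against 0.105%. The UPR element core TGACGTGG, which overlaps CCACG on the opposite strand, was in Pgap4 and Pigp (5.13% of 39, against 0.863%), neither of which passed the test. The amino acid response element TGATGNAAT was in none, against 0.508%. These matches describe letters in a window and not bound sites.

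To ask what remained of the response when IRE1 was inhibited, cells given Dox with 4μ8c were compared with untreated cells. Piga and Pigy, both placed by symbol in the first GPI step, were still higher, 2 of 43 genes (4.65%) against a background of 1.17%. None was lower, where 1.13% of all genes were. At an unadjusted p under 0.05 by limma 6 were higher and 2 lower, where 6.27% and 9.15% of all genes were. The median log2 difference was 0.03, against -0.00 over all genes. It was 0.0051 without the untreated array of experiment 2 and -0.0103 without the Dox+4μ8c array of experiment 1, with -0.0113 and -0.0111 over all genes. None of the 43 was 1.5 fold higher, a size reached by 0.302% of all genes. Piga was above untreated by 0.36 and 0.60, a mean of 0.48 ± 0.07 (log2, SE, adjusted p = 0.0271). Pigy was above it by 0.47 and 0.45, a mean of 0.46 ± 0.05 (SE, adjusted p = 0.0095). Both calls were lost when either untreated array or either Dox+4μ8c array was left out, settings in which 0.0635% to 0.381% of all genes were higher. Leaving out either Dox array cannot change these means, because the difference does not use the Dox arrays. In a fit without the experiment as a block neither Piga nor Pigy passed, and 0 of all genes were higher or lower. In a test of single probesets neither passed, with 0.421% of all genes higher.

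The other 6 genes that rose with Dox did not pass the test against untreated in the presence of 4μ8c. Alg12 was nearest, at 0.46 and 0.28 (mean 0.37, adjusted p = 0.0593), and Gmppb was at 0.36 and 0.07 (mean 0.21, 95% interval 0.03 to 0.39). Gnpnat1 had a mean of 0.14, Alg5 of 0.09 and Alg14 of 0.07. Alg1 was at 0.04 and 0.02, with an interval of -0.08 to 0.14 around its mean of 0.03. On the lower side, all 4 transamidase genes lay below untreated in both experiments, as did 28.9% of all genes. Pigs, a non-catalytic subunit, was lowest at -0.28 and -0.24 (mean -0.26, adjusted p = 0.062). Pigu, another subunit, was at -0.14 and -0.17 (adjusted p = 0.175).

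The effect of the inhibitor in the presence of Dox was taken from Dox+4μ8c against Dox. This comparison shares its arrays with those above. Piga, Gmppb, Gnpnat1 and Alg1 were lower with 4μ8c, 4 of 43 genes (9.30%) against a background of 1.61%, and none was higher, where 0.175% of all genes were. At an unadjusted p under 0.05 by limma 14 were lower and 0 higher, where 8.44% and 2.79% of all genes were. In both experiments 23 of the 43 (53.5%) lay below the Dox array, against 26.9% of all genes, and the median log2 differences were -0.07 and -0.01. Ties in experiment 1, which count as not below, held 6 of the 43 but 3509 of the 12603 genes, which lowers the share over all genes more. They also enter the medians as 0. In experiment 2 alone the medians were -0.10 and -0.03. Of the 23 genes of sugar donors and the lipid-linked oligosaccharide 20 had a mean below Dox, as did 57.9% of all genes, with a median of -0.15, and 3 passed the test. The 19 GPI genes had a median of -0.02, and 1 passed. Without the Dox array of experiment 2 the same 4 genes passed the test, with 1.13% of all genes lower. Without the Dox array of experiment 1, 7 of the 43 passed, with 4.60% of all genes. Without either Dox+4μ8c array, and in a test of single probesets, 0 of all genes passed in either direction and so none of the 43 did. In a fit without the experiment as a block 1 passed (Alg1), with 1.02% of all genes.

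Piga was lower with 4μ8c by -0.56 and -0.49, a mean of -0.53 ± 0.07 (log2, SE, adjusted p = 0.0236). Gmppb differed by -0.44 and -0.61, a mean of -0.52 ± 0.07 (SE, adjusted p = 0.0302). In both genes the Dox+4μ8c array lay below its Dox array by more than the difference between the experiments. For Alg1 the differences were -0.39 and -0.41, a mean of -0.40 ± 0.05 (SE, adjusted p = 0.0189). For Gnpnat1 they were -0.41 and -0.33 (mean -0.37, SE 0.06, adjusted p = 0.0399), and it was the gene just inside the threshold.

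The other 4 genes that rose with Dox did not pass the test for a difference between Dox+4μ8c and Dox. Alg12 was lower by -0.19 and -0.45 (mean -0.32, 95% interval -0.49 to -0.15, adjusted p = 0.108). Alg14 and Alg5 had means of -0.18 and -0.17. Pigy differed by -0.10 and -0.09, with an interval of -0.21 to 0.01, and a fall of the size seen for Piga lay outside that interval. Its probesets differed, however. The first was tied at exactly 0.00 in experiment 1 and was at -0.03 in experiment 2, and the other was at -0.20 and -0.16. The tie was not read as an absence of change, but it enters the mean and the interval of Pigy. Whether the effect of 4μ8c differed between genes was not tested. Among genes that did not pass the test with Dox, Alg2 (-0.32 and -0.21), Gmppa (-0.16 and -0.33) and Dpagt1 (-0.15 and -0.23) lay below Dox in both experiments, with adjusted p of 0.342, 0.227 and 0.174. Alg8 had the highest mean of the 43 genes, 0.09.

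Other genes of these routes were taken from a list of 26 symbols. It held older names beside current ones (Tsta3 and Gfus, Fuk and Fcsk) and Tmem8a, an older name of Pgap6. Of the list 20 were measured, all outside the rule for symbols. With Dox 3 rose and 1 fell, where 4.42% and 2.01% of all genes did. With Dox+4μ8c none passed the test against untreated, where 1.17% of all genes were higher and 1.13% lower. Against Dox alone 1 was lower with Dox+4μ8c, where 1.61% of all genes were. Gmds, which turns GDP-mannose toward GDP-fucose, was higher with Dox by 0.78 and 0.76 (mean 0.77, SE 0.05, adjusted p = 0.0012) and lower with 4μ8c by -0.53 and -0.56 (mean -0.55, adjusted p = 0.0129). With Dox+4μ8c it was above untreated by 0.25 and 0.20 (mean 0.22, adjusted p = 0.0756). Fpgt, which makes GDP-fucose in the salvage route, rose by 0.24 (adjusted p = 0.0388), and Nus1, a subunit of the enzyme that makes the dolichol chain, rose by 0.41 (adjusted p = 0.0101). Gnpda1, a deaminase that takes glucosamine 6-phosphate back to fructose 6-phosphate, fell by 0.31 (log2, adjusted p = 0.0259).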

How the data were processed

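RNA from 6 INS-1 cultures (200 ng of total RNA each, per the labels) was hybridised to Affymetrix 3′ IVT rat arrays. The authors deposited log2 values that RMA had produced, for which the submitters' processing notes give no version, and were centred per probeset within an experiment. Levels, signal over background and detection therefore could not be given, and the number of arrays (2 per group) limits the precision. Of 25476 probesets, 52 controls, 7068 without a symbol and 378 with several entries in the platform annotation were left out, and the other 17978 were averaged by symbol to 12603 genes (3839 with more than 1 probeset). Probesets whose entries repeat the same symbol, as for Pigg, were left out with the 378.

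Differences were taken within an experiment and averaged. The 3 contrasts were fitted in R 4.3.3 by limma 3.58.1 (linear model with eBayes moderation, two-sided p, replicate number as a block, all 6 arrays, 2 residual and 4.25 prior degrees of freedom, Benjamini-Hochberg over all genes of a contrast, called under 0.05) and tested on simulated data first. The study's methods name no test for the arrays. They describe independent experiments. The study's 1.5 fold threshold was counted here without a test. Pairing by replicate number rests on that description and on the centring: deviations from group means correlated over genes between same-numbered arrays with r of 0.03 to 0.10, but centring removes any offset that arrays of an experiment share. Where nothing else shows separate cultures, p-values measure only the spread between these arrays.

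Full statistics were given for genes called in any contrast (at most 14) and the largest Dox difference in each role, and genes at 1.5 fold were named. The genes, lists (26 symbols of other pathway genes, 15 islet markers) and motifs were chosen with earlier results of these data known. Of 15 markers 11 were measured, and the share of all genes follows each count. With Dox 0 rose (4.42%) and 3 fell (2.01%). For Dox+4μ8c against untreated 0 were higher (1.17%) and 1 lower (1.13%). For Dox+4μ8c against Dox 2 were higher (0.175%) and 0 lower (1.61%). Alternatives were no block, centring of each array, the median of probesets, single probesets, probesets with several symbols, and leaving out each array. Promoters were searched on both strands. Counts and figures used matplotlib 3.10.9, scipy 1.17.1, numpy 2.4.6 and pandas 2.3.3 under Python 3.11.15.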

Additional observations from a re-analysis of the deposited data

Results flagged for a closer look

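The probeset listed for both Uap1 and Uap1l2 was outside the genes tested, because its symbol is not unique, and it carried a signal with Dox. Its log2 difference from untreated was 0.79 in experiment 1 and 0.73 in experiment 2 (mean 0.76), and it passed limma's test when probesets with several symbols were included. With Dox+4μ8c it differed from untreated by 0.20 and 0.00 (mean 0.10) and from Dox by -0.59 and -0.73 (mean -0.66). Uap1 makes UDP-GlcNAc in the last hexosamine step, and the reading cannot be assigned to it or to Uap1l2.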

How the results depend on the processing

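The share of all genes called in each setting is given after a count of the 43. Without the replicate block, 5 rose with Dox (2.40%, with Alg12, Alg5 and Pigy lost, adjusted p 0.0759, 0.0810 and 0.0628), 0 were higher with Dox+4μ8c against untreated (0 of all genes; 5 at an unadjusted p under 0.05 by limma, 6.55% of all) and 1 was lower with Dox+4μ8c against Dox (Alg1, 1.02%). Tested as single probesets, these counts were 6 (3.41%), 0 (0.421%) and 0 (0 of all genes), with 13 lower at an unadjusted p in the last (9.05%). With probesets of several symbols included, 9 rose with Dox (4.49%), 5 were lower with Dox+4μ8c against Dox (1.56%) and 1, the Uap1 and Uap1l2 probeset, was 1.5 fold lower. Centring each array left 3 lower with Dox+4μ8c against Dox (1.46%, Gnpnat1 lost, adjusted p 0.0555).

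Leaving out an array leaves its group with 1, which is then assumed to vary like the other groups. The number of genes that rose with Dox ranged from 4 (without untreated replicate 1, 1.40%) to 10 (without Dox replicate 1, 8.76%), with a median log2 difference of 0.0393 (without Dox replicate 2) to 0.0977. For Dox+4μ8c against untreated 0 to 3 were higher (0.0635% to 2.52%), 0 to 1 lower (Pigs, with 3.13%) and 0 to 1 at 1.5 fold, with a median of -0.0103 to 0.0469. For Dox+4μ8c against Dox 0 to 7 were lower (7 without Dox replicate 1, 4.60%, and 0 without either Dox+4μ8c array, where 0 of all genes were called) and 0 to 1 were 1.5 fold lower, with a median of -0.0962 to -0.0615. Genes near 0 changed sign for Dox+4μ8c against Dox. With 1 array left out, Alg13l1 ranged from -0.0937 to 0.0436, Pgap6 from -0.0494 to 0.0444 and Pigt from -0.0742 to 0.0997. With each array centred Pgap6 was 0.0071, and the single probeset of Pigt with the smallest p was -0.0500. The cause was not tested. The direction of every other gene with full statistics was kept in each alternative run.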
